A study of Mus musculus with 8 samples.

Results

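The 10 genes described here encode the machinery of store-operated calcium entry and the calcium-activated channels that act with it in mast cells. They were taken by gene symbol from a table of 55359 genes: the endoplasmic reticulum (ER) calcium sensors Stim1 and Stim2, the channel subunits Orai1, Orai2 and Orai3, the inositol trisphosphate (IP3) receptors Itpr1, Itpr2 and Itpr3, the cation channel gene Trpm4 and the potassium channel gene Kcnn4. Each had 1 row, and all 10 were among the 14529 genes that passed the filter on low counts. Their lowest estimated count in any library was 192.0, for Orai1 in PMC-306. In the annotation Orai2 and Orai3 overlap no other gene and the other 8 do, Itpr3 with the coding gene Uqcc2 of the opposite strand. Only Itpr1, Itpr2 and Itpr3 overlap genes of their own strand, none of them coding, with which some reads could be shared. The library kit was stranded, which separates genes of opposite strands if the counting used the strand, and this was not checked.

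When antigen crosslinks the IgE receptor of a mast cell, phospholipase C makes IP3, which opens IP3 receptors and lets calcium out of the ER. STIM proteins sense the emptied store and open Orai channels in the plasma membrane, and the calcium that enters drives degranulation and NFAT-dependent transcription. Calcium also opens KCNN4, whose potassium efflux keeps the membrane negative and so sustains the influx, and TRPM4, whose sodium influx depolarizes the membrane and limits it.

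RNA came from wild-type mice of the strain C57BL/6x129/Sv, from cultures of peritoneal mast cells (PMCs) that received no treatment. There was 1 library each of the lines PMC-303 and PMC-306, which arose spontaneously in ageing, neglected PMC cultures and whose sex the labels do not state, and there were 6 libraries of primary WT PMCs, 3 female and 3 male. The study reports a male karyotype for PMC-306. All cultures grew with IL-3 and SCF, but the lines were kept with less serum and less SCF than the primary cultures, so that medium and transformation cannot be told apart. The labels call the primary cultures of each sex biological replicates without saying whether each came from its own animal, so p-values measure the spread between these cultures. As each line has 1 library, no single line was tested, and both lines together were tested against the 6 primary cultures. In bulk RNA, fewer cells of a type and less RNA per cell cannot be told apart.

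The libraries held between 15918758 and 24180226 estimated counts, and levels are given as CPM, counts relative to a library size scaled by the trimmed mean of M values (TMM). Of 12 mast cell markers, 8 had at least 100 CPM in every library, among them Kit, Fcer1a, Ms4a2 and Cpa3. The 12 summed to 41543 to 45422 CPM for the lines and 54979 to 85720 CPM for the primary cultures. In the lines 5 of the 12 were called lower (41.7%, where 15.5% of all genes were) and 0 higher. Tpsb2 had 177.2 CPM in PMC-303, 20.9 CPM in PMC-306 and 2857 to 10441 CPM in the primary cultures. In the same order, Mcpt4 had 1.85, 0.0492 and 31.6 to 433.9 CPM. Hdc had 42.4, 7.61 and 6.19 to 18.1 CPM, and Mrgprb2 had 1.85, 8.45 and 3.49 to 13.6 CPM. Marker lists of B cells, T cells, neutrophils and mesothelial cells or fibroblasts had no gene past the filter and summed to at most 3.37 CPM. The 8 macrophage markers, of which C1qb was at 0 throughout and Csf1r at most 0.23 CPM, reached a sum of 8.93 CPM in PMC-303, 451.8 CPM in PMC-306 and from 7.54 to 68.8 CPM in primary cultures. The PMC-306 sum was mostly Adgre1 (426.0 CPM), a marker singled out after its value was seen. Their part in the results below was not tested.

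Between lines and primary cultures, 5 of the 10 genes passed the test (limma on log2(CPM + 0.1), Benjamini-Hochberg adjusted p under 0.05 over all genes tested), where 33.9% of all genes did. All 3 Orai genes and Itpr1 were lower in the lines, 4 of 10 where 15.5% of all genes were called lower. Stim2 was higher, 1 of 10 where 18.3% of all genes were called higher. The 10 genes were chosen with earlier results of these data known, so shares set beside those of all genes are a description. Over all genes 2665 were called higher and 2255 lower, a split that became 3406 and 1665 with total count scaling and 2374 and 981 with deposited TPM. The median log2 difference of the 10 genes was -0.33 and that of all genes tested -0.01. Stim1, Itpr2, Itpr3, Trpm4 and Kcnn4 did not pass.

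**Figure D1:**
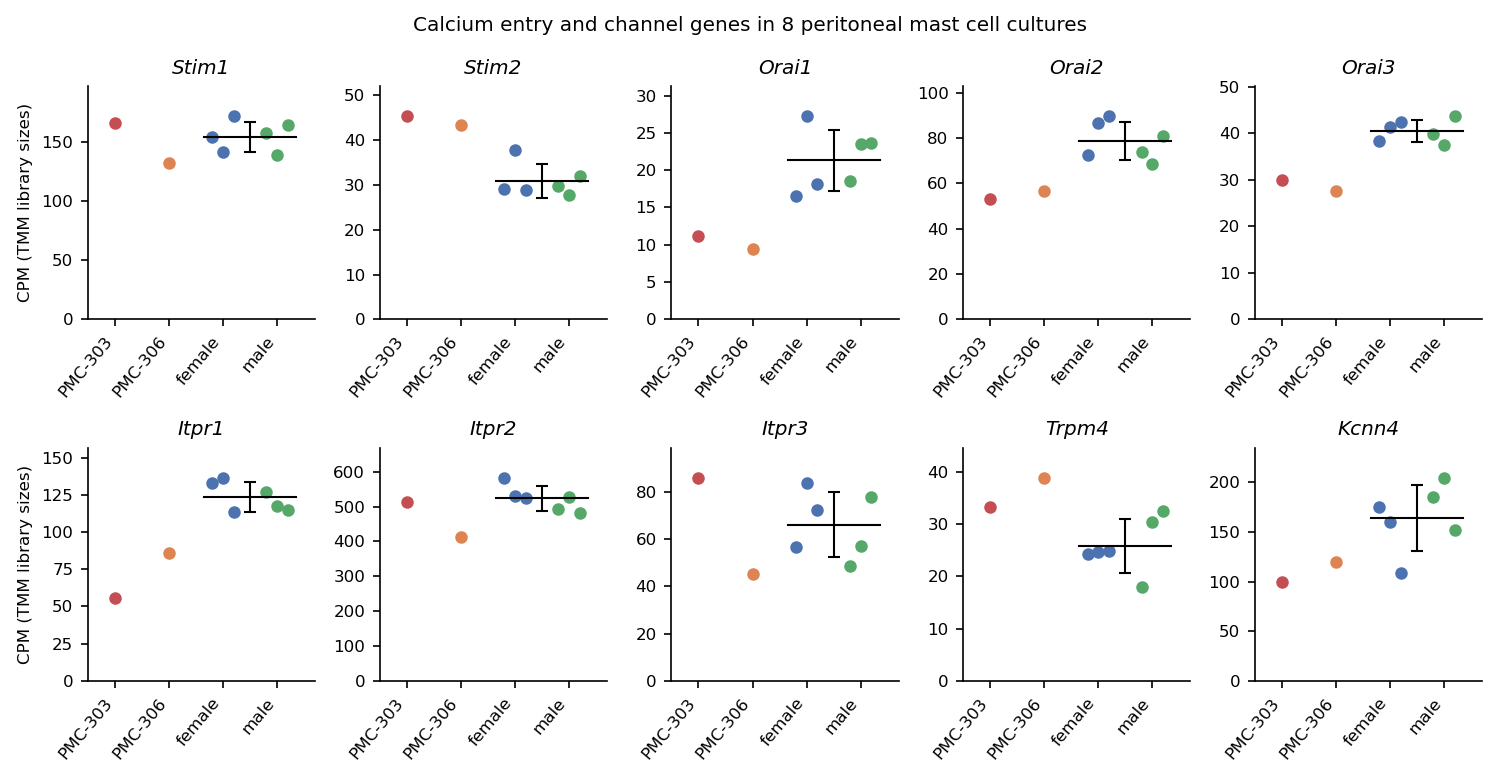
CPM of each gene (y axis, from 0) in the lines PMC-303 and PMC-306 (1 library each) and in female and male primary cultures (3 each); points are libraries, the black line is the mean of the 6 primary cultures and its bar the SD. Both lines sit below all primary cultures for Orai1, Orai2, Orai3 and Itpr1 and above them for Stim2 and Trpm4.

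Of the ER calcium sensors, Stim2 rose in the lines and Stim1 did not pass the test. Stim1 (chr7:101916979-102086526, plus strand of GRCm39), the main sensor of store depletion, had 166.2 CPM in PMC-303, 132.1 CPM in PMC-306 and from 138.8 to 171.6 CPM in the primary cultures, with a median of 156.0 CPM. PMC-303 lay within that range and PMC-306 just under it. The log2 difference was -0.06 ± 0.11 (SE; limma adjusted p = 0.73), with a 95% interval from -0.31 to 0.20. Stim2 (chr5:54155778-54278399, plus strand), which responds to small falls in ER calcium, had 45.3 CPM in PMC-303, 43.5 CPM in PMC-306 and from 27.7 to 37.9 CPM in the primary cultures, with a median of 29.4 CPM. Both lines were above every primary culture. The difference was 0.53 ± 0.12 (SE; limma adjusted p = 0.0098), or 1.45-fold. It no longer passed against female cultures alone (0.49, adjusted p = 0.096) or without PMC-303 (0.50, adjusted p = 0.057), nor with deposited TPM, where it was larger (0.73, adjusted p = 0.063).

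The Stim2 count also held a splice difference. The transcript Stim2-204 differs from the main transcript Stim2-201 by an alternative exon of 24 coding bases, or 8 codons, and by a start 66 bases further in. The exon (chr5:54267458-54267481) is that of the variant known as STIM2-beta or STIM2.1, which inhibits Orai channels. It is shown here because the share given to Stim2-204 differed, with the exon in capitals and 30 bases of intron in lower case on each side (chr5:54267428-54267511 of GRCm39, plus strand).
Stim2 alternative exon: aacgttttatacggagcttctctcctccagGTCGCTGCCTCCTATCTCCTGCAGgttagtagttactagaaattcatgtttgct

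Stim2-204 took 14%, 13.4% and 19.3% of the Stim2 count in female cultures 1 to 3. In male cultures 1 to 3 it took 3.98%, 0% and 3.21%, and in the lines 0% (PMC-303) and 1.96% (PMC-306). The female cultures were thus above all male cultures and both lines, a difference that was not tested. The share of 0% in male culture 2 rests on a Stim2 count of 446.0, where 3 counts would be 0.673%, and that in PMC-303 on a count of 1101, where they would be 0.272%. The lowest female share had a Wilson 95% interval from 11.2 to 15.8% and the highest male share from 2.64 to 5.85%, which covers counting error only. Reads are divided between these transcripts by Salmon's estimate, so the share is less certain than the gene count. Reads over the exon itself were not counted, so its use cannot be told apart from that of the different start. Stim2-203, which took 20.7 to 29.4% of the Stim2 count, was not compared for this exon.

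**Figure D2:**
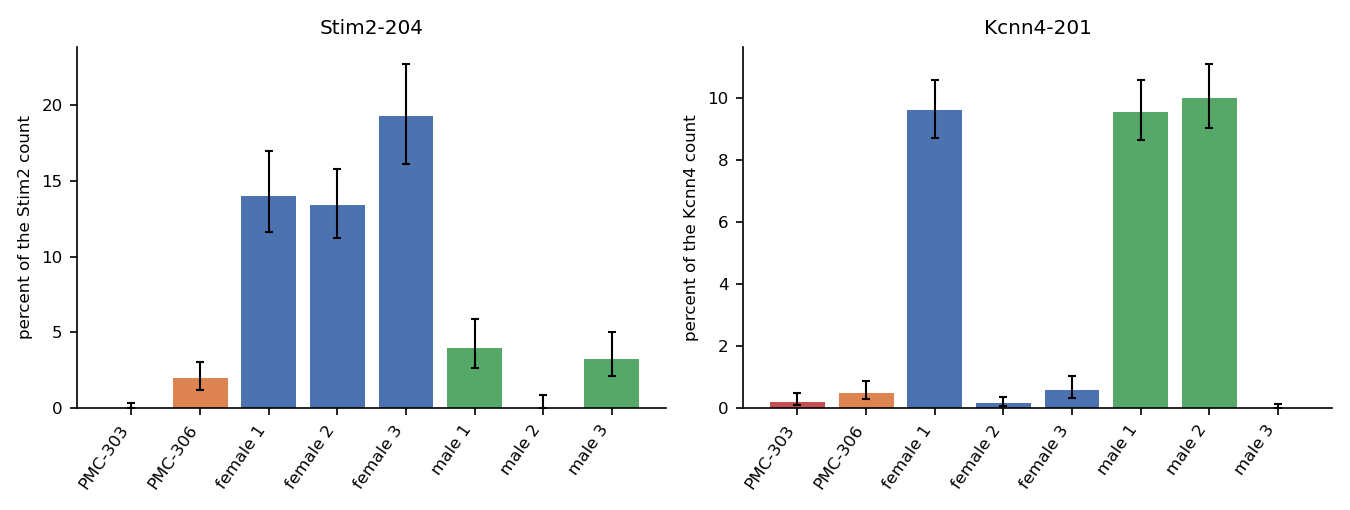
Share of the Stim2 count given to Stim2-204 (left) and of the Kcnn4 count given to Kcnn4-201 (right), in percent, in each library (x axis); bars are single libraries and error bars Wilson 95% intervals for counting error. Stim2-204 is at 13.4% or more in the female cultures and at most 3.98% elsewhere, and Kcnn4-201 is near 10% in female culture 1 and male cultures 1 and 2 and at most 0.566% elsewhere.

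All 3 genes of the Orai family, whose proteins form the pore of the calcium release-activated calcium (CRAC) channel, fell in the lines. Orai1 (chr5:123153043-123168535, plus strand), the main CRAC pore subunit, had 11.2 CPM in PMC-303, 9.43 CPM in PMC-306 and from 16.5 to 27.2 CPM in the primary cultures, with a median of 21.1 CPM. Both lines were below the lowest primary culture. Its log2 difference of -1.02 ± 0.19 (SE; limma adjusted p = 0.0047), or 2.03-fold, was the largest of the 10 genes in this fit. Against female cultures alone it was -0.96 and missed the threshold (adjusted p = 0.061).

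Orai2 (chr5:136176310-136200044, minus strand), whose product forms mixed channels with ORAI1 and lowers their current in mast cells, had 53.2 CPM in PMC-303, 56.8 CPM in PMC-306 and from 68.4 to 89.6 CPM in the primary cultures (median 77.4 CPM). The groups did not overlap, and the difference was -0.51 ± 0.11 (SE; limma adjusted p = 0.0086). Orai3 (chr7:127368982-127374330, plus strand), a subunit found only in mammals, had 29.9 CPM in PMC-303, 27.5 CPM in PMC-306 and from 37.4 to 43.6 CPM in the primary cultures (median 40.6 CPM). Again the groups did not overlap, with a difference of -0.49 ± 0.08 (SE; limma adjusted p = 0.0026). With deposited TPM (abundance per transcript length) in place of CPM neither passed (Orai2 -0.42, adjusted p = 0.088; Orai3 -0.35, adjusted p = 0.079), on a scale where the median of all genes was 0.13. Orai2 also missed it without PMC-303 (-0.46, adjusted p = 0.056).

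Because the 3 Orai genes moved together, their promoters are shown, from 250 bases before to 50 bases after the RefSeq start (RefSeq, GRCm38.p6 table, which held 8 of the 10 genes). Positions are those of the identical stretch in GRCm39: chr5:123152887-123153186 (plus strand) for Orai1, chr5:136199461-136199760 (minus strand) for Orai2 and chr7:127368737-127369036 (plus strand) for Orai3. Relative to the RefSeq start, the gene start in GENCODE is at -94 bases for Orai1, -534 for Orai2 and -5 for Orai3. The Orai2 stretch lies within the first exon of the transcript Orai2-202 (chr5:136199392-136200044), which took 6.31 to 18.4% of the Orai2 count. Capitals mark CACGTG or CATGTG on either strand, the E-box letters that MITF and related factors bind.
Orai1 promoter: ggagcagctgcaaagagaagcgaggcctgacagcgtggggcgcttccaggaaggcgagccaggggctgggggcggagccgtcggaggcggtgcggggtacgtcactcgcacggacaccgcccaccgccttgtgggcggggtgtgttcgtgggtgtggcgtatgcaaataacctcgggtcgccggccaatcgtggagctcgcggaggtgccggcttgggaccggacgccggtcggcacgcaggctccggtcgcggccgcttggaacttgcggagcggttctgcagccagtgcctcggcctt
Orai2 promoter: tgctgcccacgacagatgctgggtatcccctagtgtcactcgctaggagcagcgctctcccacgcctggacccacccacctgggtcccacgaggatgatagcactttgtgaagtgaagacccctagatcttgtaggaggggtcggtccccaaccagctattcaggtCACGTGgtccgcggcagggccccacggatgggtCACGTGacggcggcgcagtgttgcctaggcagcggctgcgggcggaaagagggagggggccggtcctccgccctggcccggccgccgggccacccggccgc
Orai3 promoter: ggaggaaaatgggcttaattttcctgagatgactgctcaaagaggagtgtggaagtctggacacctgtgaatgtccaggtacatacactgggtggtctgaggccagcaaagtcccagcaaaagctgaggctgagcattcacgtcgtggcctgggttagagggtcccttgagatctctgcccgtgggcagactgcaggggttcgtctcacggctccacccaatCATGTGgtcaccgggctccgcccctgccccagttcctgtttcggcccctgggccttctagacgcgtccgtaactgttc

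CACGTG occurred 2 times for Orai2 and not for Orai1 or Orai3, and was in 7.15% of 32851 promoters of this length. CATGTG, counted with its reverse complement, occurred 1 time for Orai3 and not for Orai1 or Orai2, and was in 14.2% of promoters. Outside the Orai family, CACGTG occurred 1 time each for Itpr3 and Kcnn4, and CATGTG 1 time for Itpr3. Neither Itpr3 nor Kcnn4 passed the test. The promoters of Stim1, Stim2 and Itpr2 had neither motif. The GC box letters GGGCGG, on either strand, were in all 3 (3, 2 and 1 times for Orai1, Orai2 and Orai3) and in 35.7% of promoters. The NFAT core GGAAA was in the Orai2 (1 time) and Orai3 (2 times) promoters and in 61.3% of promoters on either strand, and the GATA site AGATAA was in none of the 3 and in 11.2% of promoters. GC content was 70.3%, 68.0% and 57.7% for Orai1, Orai2 and Orai3, against a median of 52.7%. It was 78.7%, 76.7%, 73.3%, 72.3% and 59.7% for Stim1, Stim2, Itpr2, Itpr3 and Kcnn4. These letters are a description and not binding sites, and their relation to the differences in level was not tested.

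Of the IP3 receptors, the channels that release calcium from the ER, Itpr1 fell and Itpr2, the most abundant per length, did not pass the test. Itpr1 (chr6:108190048-108528070, plus strand) had 55.5 CPM in PMC-303, 86.1 CPM in PMC-306 and from 113.2 to 136.4 CPM in the primary cultures, with a median of 122.5 CPM. Both lines were below every primary culture, PMC-303 by more. The difference was -0.84 ± 0.15 (SE; limma adjusted p = 0.0039), and it was -0.52 without PMC-303 and -1.15 without PMC-306.

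Itpr2 (chr6:146009797-146403721, minus strand), an IP3 receptor with high affinity for IP3, had 514.4 CPM in PMC-303, 411.5 CPM in PMC-306 and from 481.7 to 582.3 CPM in the primary cultures (median 527.2 CPM). PMC-303 lay within the primary range and PMC-306 below it, and the difference was -0.18 ± 0.11 (SE; limma adjusted p = 0.22) with a 95% interval from -0.43 to 0.06. Itpr3 (chr17:27275971-27343866, plus strand) had 85.8 CPM in PMC-303, 45.3 CPM in PMC-306 and from 48.5 to 83.5 CPM in the primary cultures (median 64.7 CPM). The lines lay on opposite sides of that range, PMC-303 above and PMC-306 below, as for 4.38% of all genes tested. Their joint difference was -0.05 ± 0.27 (SE; limma adjusted p = 0.9), with a 95% interval from -0.67 to 0.56.

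Of the calcium-activated channels, neither gene passed the test. Kcnn4 (chr7:24066915-24086115, plus strand), which encodes the intermediate-conductance potassium channel KCa3.1, had 99.6 CPM in PMC-303, 119.6 CPM in PMC-306 and from 108.4 to 204.4 CPM in the primary cultures, with a median of 167.9 CPM. PMC-303 was below all primary cultures, while PMC-306 was above female culture 3 and below the other 5. The difference was -0.56 ± 0.21 (SE; limma adjusted p = 0.073), with a 95% interval from -1.05 to -0.08. The 95% intervals of these fits are not adjusted for the number of genes tested. The unadjusted limma p of Kcnn4 was 0.028. Without female culture 3 the difference was -0.68 and passed (adjusted p = 0.0074), as it did against male cultures alone (-0.71, adjusted p = 0.034).

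Trpm4 (chr7:44949126-44983986, minus strand), which encodes a calcium-activated channel for monovalent cations, had 33.3 CPM in PMC-303, 38.8 CPM in PMC-306 and from 17.9 to 32.5 CPM in the primary cultures (median 24.8 CPM). Both lines were above the highest primary culture, PMC-303 only just. The difference was 0.50 ± 0.20 (SE; limma adjusted p = 0.09, unadjusted p = 0.037), with an unadjusted 95% interval from 0.04 to 0.97. It passed with total count scaling (0.61, adjusted p = 0.0498), deposited TPM (0.56, adjusted p = 0.038) and female cultures alone (0.54, adjusted p = 0.039). Only between 47.3 and 56.4% of the Trpm4 count was given to coding transcripts. With those alone, an alternative chosen after the data were seen, the difference was 0.63 (adjusted p = 0.0546).

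**Figure D3:**
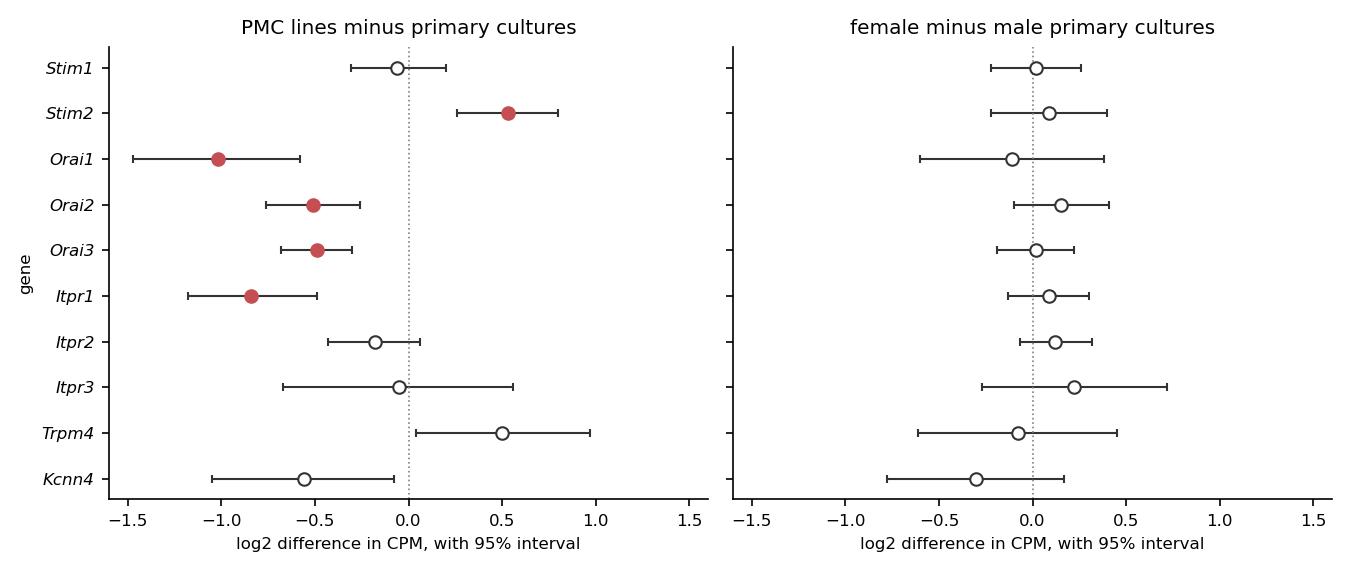
Log2 difference in CPM (x axis) with its 95% interval for the 10 genes (y axis), for the lines minus the primary cultures (left) and female minus male primary cultures (right); filled points passed the limma test after adjustment. On the left 4 filled points lie below 0 (Orai1, Orai2, Orai3, Itpr1) and 1 above (Stim2), and on the right none is filled. Intervals are not adjusted for the number of genes tested.

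Set against the range of the primary cultures, 4 of the 10 genes were below it in both lines (Orai1, Orai2, Orai3 and Itpr1), where 20.1% of all genes tested were. In both lines 2 of the 10 were above it (Stim2 and Trpm4), where 23% of all genes were. PMC-303 alone was below the range for Kcnn4 and above it for Itpr3, and PMC-306 alone was below it for Stim1, Itpr2 and Itpr3. On the TPM scale Stim1, Itpr1 and Itpr2 in PMC-306 were within the primary range, Itpr1 and Itpr2 only because of male culture 3, which had the lowest TPM for both (19.4 and 51.5).

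Levels of different genes were compared per length, as deposited TPM. In the primary cultures the order by mean was Kcnn4 (89.1 ± 21.5 TPM, SD, n = 6), Itpr2 (68.8 ± 9.93), Stim1 (42.2 ± 5.07), Itpr1 (26.8 ± 4.13), Orai2 (25.1 ± 3.53), Orai3 (21.9 ± 1.93), Orai1 (14.2 ± 2.84), Trpm4 (14 ± 1.7), Stim2 (11.7 ± 2.98) and Itpr3 (7.39 ± 1.5). The ranges of Itpr2 and Stim1, of Stim1 and Itpr1 and of Orai3 and Orai1 did not overlap, and those of every other pair of neighbours did. In the lines Stim2 stood 4th in PMC-303 and 7th in PMC-306 rather than 9th, and Orai1 stood 10th and 9th rather than 7th. Trpm4 stood 5th and 4th rather than 8th.

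Within a family, Stim1 held between 72.1 and 82.2% of the summed STIM TPM in the primary cultures and less in both lines, 70.8% in PMC-303 and 68.1% in PMC-306. The 3 Orai genes summed to between 53.6 and 68.9 TPM in the primary cultures and to 42.6 and 43.8 TPM in PMC-303 and PMC-306, both below that range. Orai1 was the smallest share of the family in every library, from 19.0 to 27.3% in the primary cultures, 18.9% in PMC-303 and 16% in PMC-306. Itpr2 held between 63.7 and 69.8% of the IP3 receptor TPM in the primary cultures, 74.6% in PMC-303 and 70.5% in PMC-306. The share of Itpr1 was 14% in PMC-303 and 23% in PMC-306, against 24.1 to 30.4%.

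The ratio of Stim2 to Stim1 was 0.414 in PMC-303, 0.469 in PMC-306 and from 0.218 to 0.389 in the primary cultures. That of Orai3 to Orai1 was 2.16, 2.35 and from 1.24 to 1.88, and that of Itpr2 to Itpr1 was 5.30, 3.05 and from 2.09 to 2.84. In these 3 ratios both lines were above every primary culture, and each reached the smallest p that 28 arrangements allow (exact permutation test, two-sided, p = 0.0714, adjusted over 5 ratios p = 0.119), so that none could pass 0.05. The ratios of Orai2 to Orai1 (exact p = 0.143, adjusted 0.179) and of Itpr3 to Itpr1 (exact p = 0.286, adjusted 0.286) each had 1 line within the primary range.

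**Figure D4:**
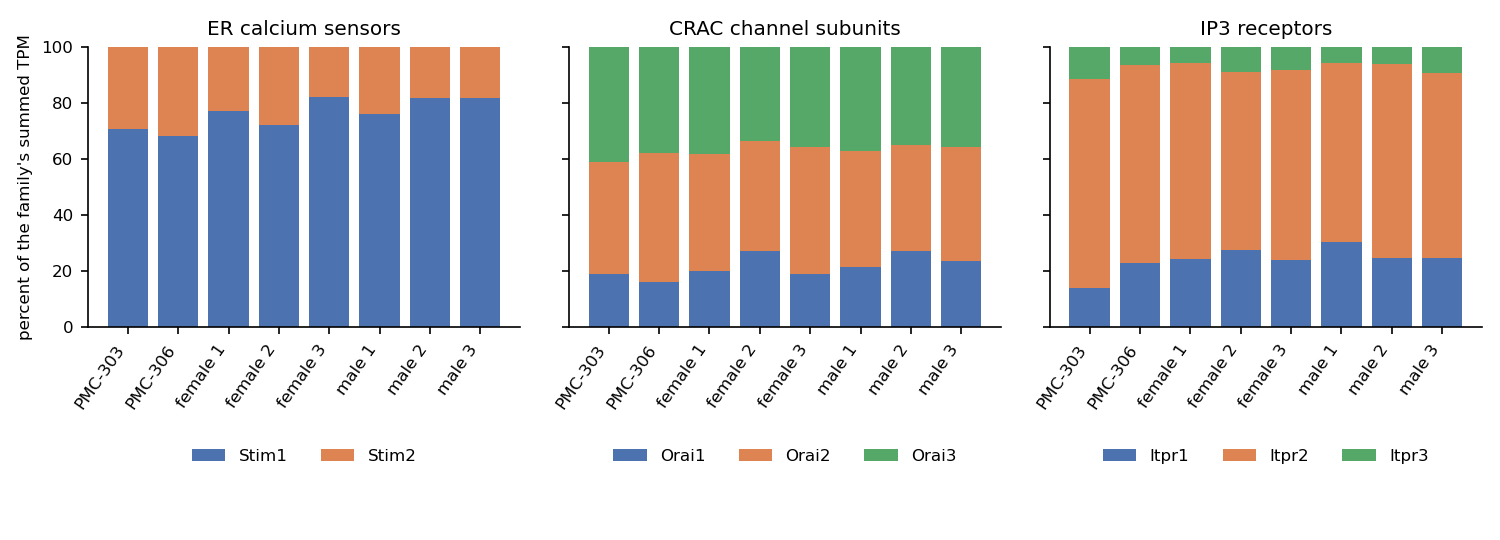
Share of each gene in the summed TPM of its family (y axis, percent) in the 8 libraries (x axis), for the ER calcium sensors, the CRAC channel subunits and the IP3 receptors; bars are single libraries and colours are genes. Stim2 takes 29.2 and 31.9% of the STIM sum in the lines and at most 27.9% in the primary cultures, and Itpr1 takes 14 and 23% of the IP3 receptor sum in the lines and at least 24.1% in the primary cultures.

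For the other genes the share of each transcript in the gene's count was compared over the 8 libraries as a description. Stim1-201 took 80.8 to 89.8% of the Stim1 count, Orai3-201 took 89.8 to 98.0% of the Orai3 count, and Itpr3-201 took practically all of the Itpr3 count. Itpr2 was divided between Itpr2-201 (46.8 to 52.4%) and Itpr2-202 (41.5 to 47.3%), which lacks an exon of 99 coding bases (chr6:146319916-146320014). Kcnn4-201 took 9.61%, 9.56% and 10% of the Kcnn4 count in female culture 1 and male cultures 1 and 2, and at most 0.566% in the other 5 libraries. It codes for the same length as Kcnn4-202 and differs in its last exon, which starts 85 bases earlier and ends 9 bases earlier. Those 3 cultures also had the highest Kcnn4 levels (175.5, 184.9 and 204.4 CPM), of which Kcnn4-201 is a part. Without it they had 158.6, 167.2 and 183.9 CPM, and female culture 1 was then below female culture 2 (160.1 CPM). Stim1-209 had no count in either line or in male culture 2 (3 counts would be at most 0.134% of the Stim1 count) and 1.64 to 4.83% in the other 5 primary cultures.

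The 10 genes differed in how much they varied among the primary cultures. The coefficient of variation of CPM over the 6 cultures was 5.82% for Orai3, 6.74% for Itpr2, 7.97% for Itpr1 and 8.24% for Stim1, and it was highest for Itpr3 (20.9%), Kcnn4 (20.1%), Trpm4 (20.0%) and Orai1 (19.3%). Between female and male cultures 0 of the 10 genes passed the test (limma with Benjamini-Hochberg adjustment, adjusted p = 1 for each; 0 at an unadjusted p under 0.05), where 0.0438% of all genes did. The widest differences, female minus male, were -0.30 ± 0.20 for Kcnn4 and 0.22 ± 0.21 for Itpr3 (log2, SE), with 95% intervals from -0.78 to 0.17 and from -0.27 to 0.72.

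In the same fit 7 lists of partner genes were read, with 158 genes in the table, of which 102 passed the filter. The lists too were chosen with earlier results of these data known, so their shares are a description. In the lines 20 of them were higher and 18 lower, 37.3% of those tested and thus close to the 33.9% of all genes, with a median log2 difference of -0.02. Without PMC-303, which leaves 1 line, the counts called of IP3 receptor regulators and of potassium and chloride channels moved. Those counts are not given here, since the lone line is then assumed to vary like the primary cultures.

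Of 13 STIM regulators and ER contact proteins tested, 4 were higher in the lines (30.8%, where 18.3% of all genes were), 0 were lower (15.5% of all genes) and the median difference was 0.15. Ckap5, which encodes a microtubule polymerase, had 333.8 CPM in PMC-303, 306.0 CPM in PMC-306 and at most 168.7 CPM in the primary cultures (1.01 ± 0.07). Tmco1, which encodes a calcium leak channel of the overfilled ER, rose by 0.57 ± 0.09 (log2, SE; limma adjusted p = 0.0018). Of 17 IP3 receptor regulators and enzymes of IP3 metabolism, 2 were higher and 3 lower (29.4% called, where 33.9% of all genes were), with a median of 0.09. Irag1, whose product couples cGMP kinase to IP3 receptors, had 310.7 CPM in PMC-303, 63.9 CPM in PMC-306 and from 0.835 to 13.3 CPM in the primary cultures (5.53 ± 0.99, adjusted p = 0.0035). Itprid2, which links IP3 receptors to actin, had 173.5 CPM in PMC-303, 168.6 CPM in PMC-306 and from 313.4 to 386.0 CPM in the primary cultures (-1.02 ± 0.10). Inpp5a, which removes IP3, fell by 0.91 ± 0.28 and Itpripl2 by 0.49 ± 0.08, while Itprip rose by 0.87 ± 0.17.

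Of 18 other calcium-permeable channels tested, 2 were higher and 6 lower (33.3% lower, where 15.5% of all genes were), with a median of -0.25. Ryr3, a ryanodine receptor that also releases calcium from the ER, had 188.8 CPM in PMC-303, 233.6 CPM in PMC-306 and from 8.22 to 45.9 CPM in the primary cultures (3.43 ± 0.61, limma adjusted p = 0.0035). Trpm2, an oxidant-gated cation channel gene, had 20.9 CPM in PMC-303, 50.2 CPM in PMC-306 and from 91.8 to 128.1 CPM in the primary cultures (-1.75 ± 0.28, adjusted p = 0.0019). The gene of the ATP-gated channel P2X4, P2rx4, fell by 0.96 ± 0.09 and the polycystin gene Pkd1 by 0.66 ± 0.14. Of 15 potassium and chloride channels, 2 were higher and 2 lower (26.7% called, where 33.9% of all genes were, median -0.21): Clcn7, a lysosomal chloride-proton exchanger gene, fell by 1.01 ± 0.11, Ano6, a calcium-activated scramblase and channel gene, fell by 0.45 ± 0.07, and Lrrc8c of the volume-regulated anion channel rose by 0.43 ± 0.13.

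Of 10 calcium pumps and exchangers tested, 2 were higher and 3 lower (50% called, where 33.9% of all genes were), with a median of -0.09. Slc24a3, a sodium-calcium-potassium exchanger gene, had 82.4 CPM in PMC-303, 71.4 CPM in PMC-306 and from 161.9 to 206.8 CPM in the primary cultures (-1.20 ± 0.10, limma adjusted p = 0.00013). Atp2a3, a pump that refills the ER, fell by 0.32 ± 0.09, and Atp2b1, a pump of the plasma membrane, rose by 0.67 ± 0.13. Of 10 genes of mitochondrial calcium uptake, 3 were higher and 1 lower (40% called, median -0.03). The uniporter subunit gene Smdt1 and the outer membrane channel genes Vdac3 and Vdac1 rose by 0.44 ± 0.08, 0.61 ± 0.10 and 0.37 ± 0.12. The 4 called in this list became 2 with deposited TPM, 1 against female cultures alone and 2 against male cultures alone. Over all genes the 4920 called in the main fit became 3355, 2160 and 3033 in the same settings. Of 19 genes of calmodulin, calcineurin and NFAT, 5 were higher and 3 lower (42.1% called, median -0.03), which became 2 called with deposited TPM, 1 against female cultures alone and 5 against male cultures alone. Calm2 and Calm3 rose by 0.57 ± 0.10 and 0.43 ± 0.10 and the calcineurin subunit gene Ppp3cc by 0.85 ± 0.19, while the calcineurin regulator gene Rcan1 fell by 0.54 ± 0.11, the kinase gene Camk1 by 0.49 ± 0.09 and Cabin1 by 0.34 ± 0.11. Calmodulin and Vdac genes have processed copies in the genome with which they could share reads, so their values are uncertain.

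**Figure D5:**
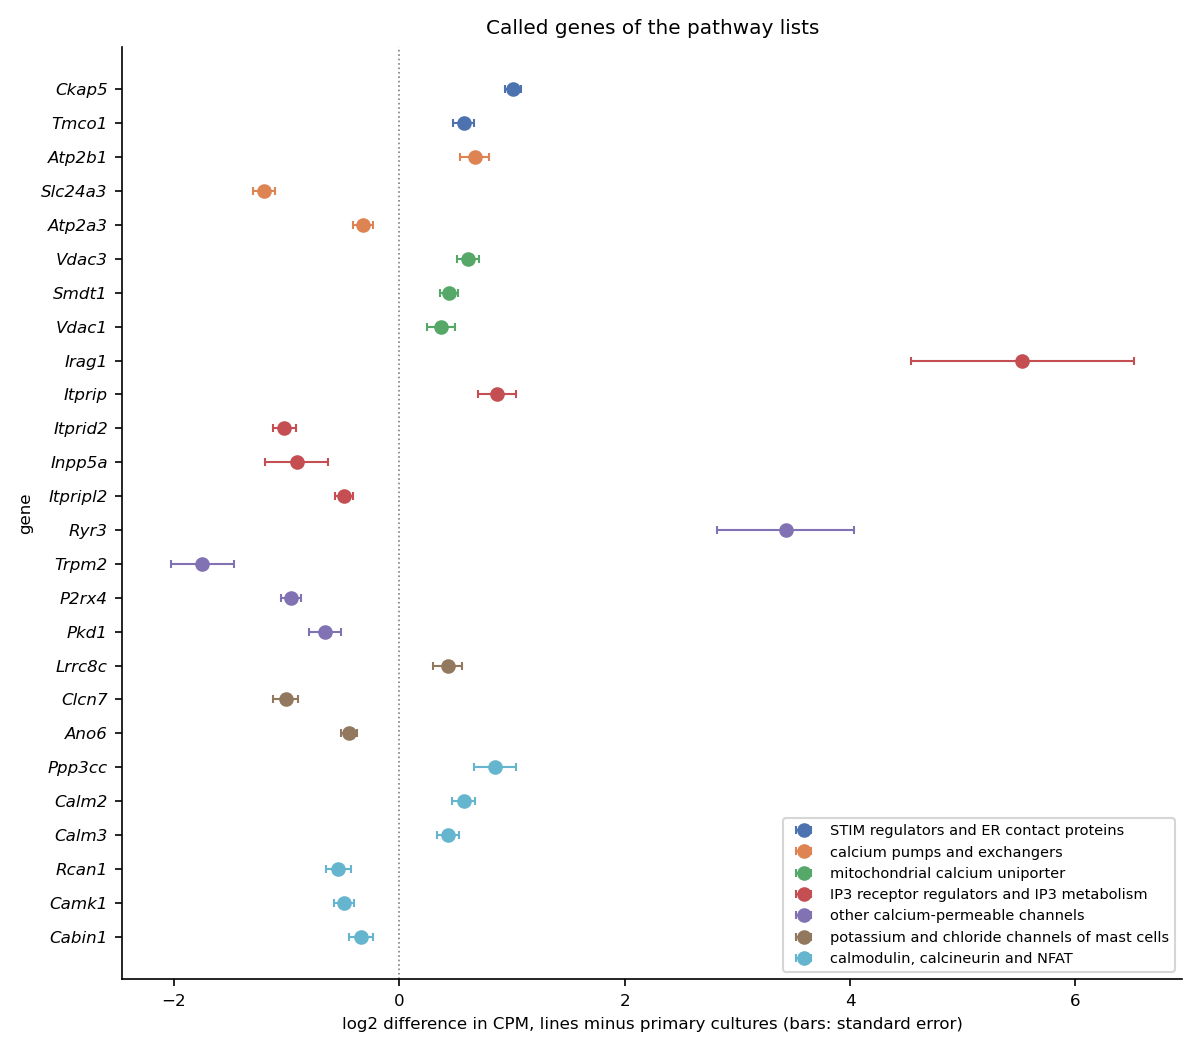
Log2 difference in CPM between lines and primary cultures (x axis, bars are standard errors) for the genes named in the text from the 7 lists (y axis, colours are lists), all past the limma test. Irag1 (5.53) and Ryr3 (3.43) lie far to the right, and Trpm2 (-1.75) and Slc24a3 (-1.20) are the lowest.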

How the data were processed

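Libraries were made from total RNA with a stranded kit. The submitters' processing notes name Trim Galore 0.6.7, STAR 2.7.9a and Salmon 1.5.2 with GRCm39. Estimated counts, not normalized, were deposited for genes and transcripts, and the authors also deposited TPM for genes, scaled for length and library size. A spreadsheet had turned 3.37% of gene count cells, 3.22% of transcript count cells and 21.8% of TPM cells into dates or numbers with extra points. Counts were set back to a reading with at most 3 decimals. In 381 gene count cells and 3601 transcript count cells a date had more than 1 such reading, and 1 was taken. After this, 99.702% of gene counts, over genes and libraries, matched the total of their transcripts to 0.2 counts (largest difference 1.53). For genes with counts in more than 1 library, the point of TPM cells with extra points was placed by reference to the counts. These TPM values therefore depend on the counts. In 9476 TPM cells the point chosen differed from the default place. Column totals of TPM were 1000054 to 1000311.

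Genes with a count of about 10 in as many libraries as the smaller group and 15 in total were tested with limma 3.58.1 in R 4.3.3 on log2(CPM + 0.1) with the variance trended on mean level. The offset understates changes of low genes. No count model was used, since the tables as deposited hold altered cells. The fit was also run on simulated counts with few changed genes and the same spread beyond counting error for every gene. These settings differ from the data, so the outcome is not used here. Samples were grouped by their labels, and 0 columns lacked a sample. A count of 0 allows up to 3 counts, or 0.123 to 0.187 CPM. Family ratios of TPM + 0.1 were tested by exact permutation. The members and lists were chosen with earlier results of these data known. Named partner genes are, per list, at most 3 rises and 3 falls among genes that passed with a mean of at least 5 CPM, of which 2 are not reported here. Coordinates are from GENCODE M39, which held 98.9% of the genes. Replicate numbers 1 to 3 occur in both sexes, but the labels do not say that they pair cultures, so they were not treated as pairs. Deviations of same-numbered cultures had correlations of 0.405, -0.216 and 0.284, which with 3 cultures per sex cannot decide this. Other scalings, offsets, filters, values and subsets were tried. Python 3.11.15, numpy 2.4.6, pandas 2.3.3 and scipy 1.17.1 were used.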

Additional observations from a re-analysis of the deposited data

Results flagged for a closer look

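Itpr3 moved in opposite directions in the lines relative to the primary cultures, with a log2 fold of 0.38 in PMC-303, above all 6 primary cultures, and of -0.54 in PMC-306, below all 6. The difference between the lines was not tested, as each has 1 library. No primary culture stood apart from the other 5 in CPM for any of the 10 genes by Dixon's test, where the largest quotient was 0.581, for Stim2, under the 95% critical value for 6 samples.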

How the results depend on the processing

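No called difference of the 10 genes changed sign in any setting tried. With deposited TPM 3355 of all genes were called in place of 4920. With deposited TPM the genes called fell from 5 to 3 (Orai1, Itpr1 and Trpm4), as Stim2 (0.73, adjusted p = 0.063), Orai2 (-0.42, adjusted p = 0.088) and Orai3 (-0.35, adjusted p = 0.079) missed the threshold and Trpm4 (0.56, adjusted p = 0.038) passed it, and partner genes called fell from 38 to 23 (IP3 receptor regulators from 5 to 3, potassium and chloride channels from 4 to 2). Against female cultures alone 2160 genes were called in place of 4920 and 18 partner genes (STIM regulators 2 in place of 4, pumps and exchangers 3 in place of 5, other calcium-permeable channels 4 in place of 8), Stim2 (0.49, adjusted p = 0.096) and Orai1 (-0.96, adjusted p = 0.061) missed it and Trpm4 passed (0.54, adjusted p = 0.039). Against male cultures alone 3033 genes were called and Kcnn4 passed (-0.71, adjusted p = 0.034). With total count scaling, which moved the median of all genes from -0.01 to 0.10, Trpm4 passed (0.61, adjusted p = 0.0498). The cause of these changes was not tested, but the subsets hold fewer cultures.

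With each library left out in turn, 3 to 6 of the 10 genes and 3848 to 4665 of all genes were called, and log2 differences ranged from 0.50 to 0.59 for Stim2, from -0.56 to -0.46 for Orai2 and from -0.69 to -0.43 for Kcnn4. The low count of 3 came without PMC-303. The lone line is then assumed to vary like the primary cultures. Of Stim1 and Itpr3 the direction depended on which line was left out (-0.22 to 0.11 and -0.51 to 0.41), and neither was called.

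Between the sexes, the fit with the replicate block called 5 genes in place of 6 and 0 of the 10 described here, as did the fit without it. The part of depth in these limits was not tested; the lowest count of the 10 genes in any library was 192.0.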
